A study of Arabidopsis thaliana with 8 samples.

Results

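The genes described here were bright in leaf, 3 or more times dimmer in root, and above 0 in both tissues. They were read from 60 of the 3439 probes on arrays of the plant Arabidopsis thaliana. Each probe was chosen by its deposited spot intensities: above 0 on all 8 arrays, a leaf mean of 1 or more, a leaf mean 3 or more times the root mean, and an annotation to at least 1 gene. Another 99 probes met the same value conditions but are not named by the annotation used. Of the 60 probes, 28 are annotated to 1 gene and 32 to several, and together they name 101 genes.

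The study compared wild-type leaves with wild-type root material, both of the Columbia 0 ecotype, by hybridising total RNA to 4 arrays per tissue. The labels name neither the age of the plants nor how they were grown. All sample titles share a numeric prefix whose meaning is not given. The labels also do not say whether arrays of a tissue came from separate plants, so the spread between arrays may be technical. Intensities are linear and relative, from 0 to a ceiling at 100. In such bulk samples, fewer cells of a type and less RNA per cell cannot be told apart.

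A leaf is built around mesophyll cells that are packed with chloroplasts, the plastids that harvest light and fix carbon. Root plastids carry no thylakoids but still make amino acids, lipids and nucleotides, so both tissues use a shared plastid gene expression and protein folding machinery. Nuclear genes for chloroplast build-up, for the cuticle and cell wall, and for cold tolerance are known to be active in shoots, many of them under light. The 60 probes include classic photosynthesis genes, but most name genes of other functions.

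Because the intensities themselves chose the probes, their leaf-to-root ratios describe the set and are no test of it. The ratio of leaf mean to root mean lay between 3.0 and 50.8, with a median of 3.85, where 1 probe at the ceiling in leaf enters with its lower limit. It was under 4 at 32 probes, 5 or more at 24, 10 or more at 10 and 20 or more at 4. Single-gene probes had a median of 3.77 and shared probes one of 4.03. Over the 2087 probes above 0 on every array, the median ratio was 0.779. Every leaf array lay above every root array at all 60, as it did at 15.0% of all probes. All 60 were called higher in leaf by limma at a Benjamini-Hochberg adjusted p below 0.05, against 22.1% of the 3298 probes tested, while 20.1% were called higher in root. Nothing is read from these counts, since the rule used the same contrast. Of the 182 annotated probes above 0 on all arrays with a leaf mean of 1 or more, the 60 make up 33.0%.

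At the edges of the rule, the values formed no gap. The probes just inside the ratio limit were AT4G30150 at 3.0, the probe shared by AT4G31890, AT2G27430 and AT2G25130 at 3.04, and AT5G66050 at 3.05. Just outside were AT2G35390 at 2.99, AT5G05400 at 2.98 and the probe of AT1G80280, AT1G15490 and AT3G10840 at 2.97. For leaf mean intensity, AT5G38310 at 1.26, a COR15 probe at 1.10 and the probe of AT4G31890, AT2G27430 and AT2G25130 at 1.08 were just inside. AT3G23940 at 0.897, AT2G01400 at 0.885 and PRA1.B6 at 0.885 were just outside. A further 4 annotated probes met both limits but were listed at 0 on at least 1 array.

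Among the single-gene probes, 4 belong to photosynthesis proper: PSAN and PSBY of the photosystems, the antenna gene LHB1B2 and the Calvin cycle gene PRK. LHB1B2 read 23.7, 25.1, 19.3 and 21.8 on leaf arrays 1 to 4 and 0.680, 0.574, 0.346 and 0.323 on root arrays 1 to 4. Its ratio was 46.8. A gene outside photosynthesis, AT5G38360, which encodes a protein of the alpha/beta-hydrolase superfamily, had the largest ratio of the 28 single-gene probes. AT5G38360 read 27.4, 28.5, 32.0 and 31.4 in leaf and 0.728, 0.707, 0.509 and 0.497 in root, a ratio of 48.9. Leaf arrays 3 and 4 were the higher pair for AT5G38360 and the lower pair for LHB1B2, and in root arrays 3 and 4 were the lower pair for both.

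Chloroplast assembly and organelle RNA metabolism supplied several of the single-gene members. AT3G47650, the gene of the Rubisco assembly chaperone BSD2, read 2.62, 2.51, 3.06 and 2.92 in leaf and 0.433, 0.301, 0.310 and 0.365 in root, a ratio of 7.88. AT3G26630 encodes a pentatricopeptide repeat protein, a class that binds organelle transcripts. It read 15.7, 16.1, 13.3 and 12.9 in leaf and 2.46, 1.83, 2.10 and 1.85 in root, a ratio of 7.03. The lowest leaf array was thus more than 5 times the highest root array (5.23). AT3G27550 carries a CRM RNA-binding domain of the kind found in organelle intron splicing factors. Its leaf mean was 4.09 ± 0.414 against 1.31 ± 0.186 for root (SD over 4 arrays per tissue, n = 4, as for all such values below).

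Metabolic enzymes formed another group of single-gene probes. AT4G31530, of the NAD(P)-binding Rossmann-fold superfamily, read 30.8, 32.4, 30.7 and 31.2 in leaf and 4.41, 4.90, 4.11 and 4.15 in root. Its ratio was 7.12, and the 4 leaf arrays differed little among themselves, with a coefficient of variation of 2.45%. AT4G13550, known as the heat-inducible galactolipid lipase HIL1, read 3.64, 3.63, 3.97 and 3.88 in leaf and 0.827, 0.883, 0.683 and 0.622 in root, a ratio of 5.01. AT1G10310, a pterin aldehyde reductase that salvages folate breakdown products, read 7.35, 6.88, 5.12 and 5.18 in leaf and 2.42, 2.47, 1.26 and 1.38 in root. In both tissues arrays 1 and 2 of AT1G10310 were the higher pair. AT5G03370, of the acylphosphatase family, had a ratio of 3.34, from 2.26 ± 0.428 in leaf and 0.677 ± 0.0390 in root.

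Regulatory genes also met the rule. IAA31 belongs to the Aux/IAA family of auxin response repressors. It read 3.40, 3.49, 1.83 and 2.32 in leaf and 1.07, 1.02, 0.498 and 0.751 in root, a ratio of 3.31, and the lowest leaf array was 1.72 times the highest root array, the smallest such margin among the 28 single-gene probes. RAP74, the large subunit of the general transcription factor TFIIF, read 4.12, 4.15, 4.73 and 4.62 in leaf and 0.936, 0.828, 1.0 and 1.13 in root, a ratio of 4.53. TFIIF acts at genes read by RNA polymerase II. AT2G46850, of the protein kinase superfamily, read 2.59, 2.82, 2.50 and 2.51 in leaf and 0.451, 0.531, 0.905 and 0.862 in root. Its ratio was 5.51 within replicates 1 and 2 and 2.83 within replicates 3 and 4. AT3G06570, a kelch repeat protein, had the steadier ratio of 14.5 and 15.0 in these pairs, from 4.90 ± 0.348 in leaf and 0.333 ± 0.0314 in root.

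SIS, named for a serine-rich protein induced by salt, read 2.07, 1.90, 1.71 and 1.86 in leaf and 0.639, 0.634, 0.505 and 0.582 in root, a ratio of 3.2. AT4G30150, of the Urb2/Npa2 family that is known in yeast for ribosome assembly, sat at the limit with 2.0 ± 0.109 in leaf and 0.666 ± 0.0856 in root. For the remaining single-gene probes no role is stated here: AT1G32730 (ratio 6.22), AT5G38310 (4.30), AT1G06510 (3.94), AT5G26850 (3.75), AT5G64150 (3.53), AT1G72020 (3.44), AT5G52530 (3.33), AT1G73470 (3.2), AT4G20300 (3.09) and AT5G66050 (3.05). The tightest leaf values of all 28 belonged to AT1G72020, at 1.85, 1.82, 1.76 and 1.83, a coefficient of variation of 2.18%.

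Of the 32 shared probes, 21 name 2 genes and 11 name 3, and a value cannot be assigned to any 1 of them. At 6 of these probes some of the genes are next to each other in gene order; the rest name genes apart in the genome. The largest measured ratio was on a shared probe for AT1G08845, AT5G27820 and AT3G20230, genes of the ribosomal L18p/L5e family. It read 27.2, 27.9, 28.0 and 29.2 in leaf and 0.699, 0.621, 0.384 and 0.506 in root, a ratio of 50.8. A probe at the ceiling on all leaf arrays, for AT5G51520 and AT4G25250, has only a lower limit and cannot be ranked against it. On the L18p/L5e probe, the leaf arrays were within a coefficient of variation of 2.87%, and the spread lay in root (24.8%).

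Another 4 shared probes, grouped by function and not by ratio, each name at least 1 gene for chloroplast structure, electron transport, translation or organelle RNA editing. AT4G01150 and AT4G38100 are CURT1A and CURT1D in the gene table, proteins that bend thylakoid membranes at the edges of grana. Their probe read 1.91, 2.05, 1.47 and 1.72 in leaf and 0.249, 0.287, 0.162 and 0.195 in root, a ratio of 8.02. FUG1, the chloroplast translation initiation factor IF2, shared a probe with AT4G11160, which read 2.54, 2.28, 1.96 and 2.07 in leaf and 0.735, 0.825, 0.637 and 0.666 in root, a ratio of 3.09. OTP80, an organelle RNA editing factor, shared a probe with AT5G43790 and AT4G37380, at 4.37 ± 0.146 in leaf and 1.28 ± 0.0960 in root. The probe of AT2G26500, the PetM subunit of the cytochrome b6f complex, is shared with AT5G35660. It read 11.7, 8.32, 7.15 and 7.21 in leaf and 1.04, 1.11, 0.352 and 0.450 in root. Root arrays 1 and 2 averaged 2.67 times root arrays 3 and 4 there, so that its ratio was 9.35 in the first pair of replicates and 17.9 in the other.

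Protein folding and redox were represented by shared probes as well. AT3G66654 and AT2G47320 encode cyclophilin-type peptidyl-prolyl isomerases, which help proteins fold. Their probe read 7.69, 6.87, 8.21 and 7.08 in leaf and 0.493, 0.588, 0.479 and 0.399 in root, a ratio of 15.2. A probe for AT5G03880 and AT4G10000, both of the thioredoxin family, read 2.13 ± 0.148 in leaf and 0.549 ± 0.0496 in root, a ratio of 3.88.

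COR15A and COR15B, adjacent genes for chloroplast stroma proteins that protect membranes during freezing, were read by a pair of probes, and both met the rule. Probe 615 read 1.67, 1.74, 1.18 and 1.39 in leaf and 0.311, 0.976, 0.206 and 0.278 in root. Root array 2 stood more than 3 times above the other root arrays and just below the lowest leaf array, and without it the ratio of 3.37 became 5.63. Probe 3484 read 1.26, 1.31, 0.865 and 0.958 in leaf and 0.0596, 0.117, 0.0663 and 0.0695 in root, a ratio of 14. These root values lay below the median of every root array, and on quantile normalised intensities the ratio was 28.0. Root array 2 was again the highest root value, and leaf arrays 1 and 2 were the higher leaf pair on both probes. No other gene of the list for cold and dehydration had a probe.

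Cell wall and secretory pathway genes made up a further group. The probe for AT5G51520 and AT4G25250, of the family of pectin methylesterase inhibitors, gave 11.2, 11.6, 11.3 and 11.8 on the root arrays and the ceiling of 100 on each of the 4 from leaf. Its leaf level is therefore a lower limit, and the ratio at least 8.71-fold. CSLC5, CSLC6 and ATCSLC08, of the cellulose synthase-like C family that makes the backbone of xyloglucan, shared a probe that read 3.81, 3.81, 3.24 and 3.10 in leaf and 1.30, 1.21, 0.995 and 1.01 in root. SETH2, which acts in the synthesis of the lipid anchor of cell surface proteins, shared a probe with the glycosyltransferase genes AT1G73160 and AT4G19460. That probe read 18.2, 20.4, 12.5 and 12.1 in leaf and 3.43, 3.77, 3.01 and 1.90 in root, a ratio of 5.22. PRA1.G1 and PRA1.G2 belong to the prenylated Rab acceptors, membrane proteins of vesicle traffic. Their probe read 3.39 ± 0.740 in leaf and 1.05 ± 0.258 in root, a ratio of 3.23. The probe for AT4G21450 and AT4G05060, homologues of proteins that anchor membrane contact sites, had a ratio of 5.21, and that for AT4G00165 and AT2G45180, of the lipid transfer protein superfamily, one of 4.88.

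Other shared probes named enzymes, transporters and regulators. A probe for OTC, which makes citrulline on the way to arginine, PYRB, which starts pyrimidine synthesis, and AT1G75335, next to OTC in gene order, read 1.85, 1.49, 0.862 and 1.10 in leaf and 0.298, 0.355, 0.378 and 0.395 in root. Its ratio was 5.13 in replicates 1 and 2 and 2.53 in replicates 3 and 4. AT5G19500 and AT2G33260, of a tryptophan and tyrosine permease family, read 1.31 ± 0.179 in leaf and 0.212 ± 0.0620 in root, a ratio of 6.19. The floral F-box gene UFO shared a probe with AT5G15710, another F-box gene, at 1.98 ± 0.301 in leaf and 0.235 ± 0.130 in root. This ratio of 8.41 was the most uneven between pairs of replicates, at 15.9 and 5.55. BUB3.1 and BUB3.2, of the spindle checkpoint, shared a probe with AT1G69400 at 1.51 ± 0.151 and 0.454 ± 0.0420. AT1G23980 and AT5G40250, of the RING finger ATL family, shared one with AT3G48030 at 9.56 ± 2.15 and 2.99 ± 0.103. AT4G31890, AT2G27430 and AT2G25130, of the armadillo repeat superfamily, gave the smallest margin of all 60, the lowest leaf array being 1.15 times the highest root array.

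No role is stated here for the genes of the last 11 shared probes. Their ratios were 12.6 for AT4G24026 with AT4G10810, 7.05 for AT5G58990 with AT5G52370, 6.39 for AT5G53270 with AT5G53260, 5.76 for AT2G13450 with AT2G13440 and AT2G13430, and 4.18 for AT2G34540 with AT2G34530. They were 3.83 for AT5G13720 with AT4G19390, 3.52 for AT3G07565 with AT2G43470, 3.46 for AT1G79510 with AT1G16320 and AT2G46220, 3.19 for AT1G05860 with AT3G53860 and AT2G31600, and 3.06 both for AT1G73750 with AT1G15060 and for AT4G08330 with AT2G17705. The first of these read 43.3, 44.3, 39.3 and 40.1 in leaf and 4.27, 4.01, 2.52 and 2.44 in root.

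Other probes that name a gene of these 60 were not used by the rule, except that they did not meet it. There were 17 such probes, for 13 of the 60. By limma across all 3298 probes, 4 of the 17 were called higher in leaf (23.5%, against 22.1% of all probes), 2 higher in root (11.8%, against 20.1%), and 11 did not pass. In deposited mean, 6 of the 17 were higher in leaf. Probes that met the rule, such as both COR15 probes, are not among the 17, so these counts do not say how often probes of a gene give the same direction. Shared annotation does not say which transcript a probe reads.

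Where another probe was called higher in leaf, its values were as follows. A probe shared by SIS, AT5G59080 and AT3G46880 read 0.886, 0.669, 0.83 and 0.768 in leaf and 0.344, 0.430, 0.313 and 0.308 in root, a log2 difference, leaf minus root, of 1.66 ± 0.17 (SE; limma, adjusted p = 2.21e-04). The single-gene probe of AT1G05860 differed by 1.15 ± 0.18 (limma, adjusted p = 1.35e-03). A probe shared by AT1G75335 and AT5G60030 differed by 1.14 ± 0.23 (limma, adjusted p = 5.28e-03), but with arrays scaled to a common mean it did not pass (adjusted p = 0.0612; 1.08e-03 to 0.0612 over 16 alternatives).

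The trio of AT1G79510, AT1G16320 and AT2G46220 was read by 3 probes with different subsets of its genes. The probe for all of them read 3.0, 2.93, 1.62 and 1.80 in leaf and 0.778, 0.815, 0.570 and 0.542 in root. The probe for AT1G79510 and AT1G16320 was called higher in leaf, by 2.10 ± 0.31 (limma, adjusted p = 1.10e-03). The probe for AT2G46220 alone read 3.2, 3.34, 3.14 and 3.02 in leaf and 14.2, 14.2, 10.5 and 11.0 in root, and was called higher in root, with a difference of -2.33 ± 0.15 (limma, adjusted p = 2.17e-05). Both probes that name AT2G46220 thus differed in direction, and the values do not say which gene the shared probe reads. The call for AT1G79510 with AT1G16320 and that for AT2G46220 alone held under the 16 alternatives run.

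The other probe called higher in root names AT1G08845 alone, a gene of the L18p/L5e probe with the largest measured ratio. Root arrays 1, 3 and 4 gave 0.233, 0.132 and 0.101, while root array 2 and every leaf array were listed at 0 (log2 difference -3.06 ± 0.96; limma, adjusted p = 0.0365). That call passed in 5 of 15 alternatives. It was lost in 10: with a floor at the 5th percentile, with median centring, with the replicate number as a block, and without any 1 of leaf arrays 1 to 4 or root arrays 1, 3 and 4, with adjusted p between 3.10e-04 and 0.0934 over the alternatives. A pair of probes carried exactly the same genes as a member and was not one. For AT5G13720 and AT4G19390 the difference was 2.26 ± 0.88 (limma, adjusted p = 0.0764; 0.0197 to 0.360 over 16 alternatives), passing with a floor at the 5th percentile, with an offset and without root replicate 2. For AT1G73750 and AT1G15060 it was 0.50 ± 1.14 (limma, adjusted p = 0.743), with 2 arrays of each tissue at 0. Of this pair, 0 passed in limma, and 1 had an unadjusted p below 0.05.

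A probe for AT4G31530 that also names AT5G02240 and AT2G37660 gave means of 1.64 ± 0.126 (leaf) and 1.80 ± 0.0268 (root). Its log2 difference of -0.23 ± 0.20 did not pass (limma, adjusted p = 0.400). With arrays centred on their medians it was 0.69, of opposite sign, and passed (limma, adjusted p = 0.0176; 0.0176 to 0.602 over 16 alternatives). A probe for IAA31, IAA30 and IAA20 read 0.356, 0.222, 0.174 and 0.139 in leaf and 0.401, 0.483, 0.583 and 0.543 in root. All root arrays lay above all leaf arrays, but the log2 difference of -0.65 ± 0.35 was not called (limma, adjusted p = 0.169). It was called higher in root on the deposited intensities and with arrays scaled to a common mean (0.0129 to 0.390 over 16 alternatives). The remaining 6 probes, for genes that include OTC and PYRB, AT3G26630, SETH2's partners, AT3G53860, CSLC5 and AT4G31890, had log2 differences between -1.69 and 1.03 and were not called, nor was a further probe of AT1G75335, at -1.01. Of these 7, 5 passed in at least 1 alternative. Towards root, these were the probes for OTC and PYRB in 3, for AT3G53860 in 5, for AT4G31890 in 3 and for CSLC5 in 2. Towards leaf, it was the probe for SETH2's partners in 1, without leaf replicate 3. On each probe that passed towards root, all root arrays lay above all leaf arrays in deposited intensity.

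Families named by members were read by few other probes. The members counted in these families were chosen for being higher in leaf, so their calls say nothing about a family. Of 6 PRA1 probes, 1 of them a member, 2 were called higher in leaf and 4 higher in root, against 22.1% and 20.1% of all probes. Beside the PRA1.G probe, PRA1.B6 was the one higher in leaf, by 3.12 ± 0.39 in log2 (limma, adjusted p = 5.27e-04). PRA1.B3 alone had the largest difference towards root, at -3.58 ± 0.32 (limma, adjusted p = 1.02e-04). The call for PRA1.B5 with PRA1.B4 (-1.72 ± 0.58; limma, adjusted p = 0.0456) was lost with the replicate number as a block and without leaf replicate 1, 2 or 4 or root replicate 3 or 4 (8.26e-03 to 0.112 over 16 alternatives). Of 4 CSLC probes, the member was called and 3 did not pass, among them a CSLC12 probe at the ceiling on all 8 arrays, which has no measurable difference. Of 5 OTP probes the member was called and 4 did not pass. OTP70 had a root mean of 0.639 ± 0.128 above its leaf mean of 0.242 ± 0.0865, and was not called (-0.86 ± 0.34 in log2; limma, adjusted p = 0.0775; 7.93e-03 to 0.178 over 16 alternatives). It passed on the deposited intensities, with a common mean, without root replicate 2 and with a block for replicates 1 and 2 against 3 and 4.

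Of 14 gene lists with 194 genes in all, only 17 genes had a probe. For photosystems and antenna, 4 of 5 probes were called higher in leaf and 1 higher in root, against 22.1% and 20.1% of all probes. Of the 5, 3 are members, chosen for being higher in leaf, and their calls say nothing about the list. The others were the LHCB4 antenna probe, at 0.679 ± 0.0870 in leaf and 0.0428 ± 0.0345 in root with root array 4 listed at 0 (log2 difference 5.52 ± 0.63; limma, adjusted p = 3.14e-04), and photosystem II gene PSBW, at 25.1 ± 1.24 in leaf and 70.8 ± 8.33 in root (-1.72 ± 0.26; limma, adjusted p = 1.37e-03). For the Calvin cycle, 1 of 3 tested probes was called, the member PRK, which was chosen for being higher in leaf. Both other tested probes are shared by RCA and AT1G73110. Probe 665 averaged 0.192 ± 0.0921 over the leaf arrays against 0.35 ± 0.0591 for root, without a call (limma, adjusted p = 0.680). Probe 1872 was listed at 0 on 3 leaf arrays and 1 root array, and also had no call (limma, adjusted p = 0.924). SBPASE was listed at 0 on all 8 arrays and could not be tested. The probes of the lists for cold and dehydration (2 of 12 genes) and cell wall (2 of 9 genes) were all members, chosen for being higher in leaf, and say nothing about those lists. The 1 probe of the starch and sucrose list, shared by PWD and AT5G01260 and no member, was called higher in leaf. It read 1.04 ± 0.0825 in leaf and 0.0656 ± 0.0921 in root, with root arrays 1 and 2 listed at 0. Its log2 difference of 5.74 ± 1.04 (limma, adjusted p = 3.11e-03) thus depends on the floor. The photorespiration probe did not pass. No named probe matched the listed genes for carbonic anhydrases, for cuticle, wax and lipid transfer, for glucosinolates and myrosinase, for defence and jasmonate, for clock and light response, for nitrogen assimilation or for aquaporins. Of 9 root markers, AT4G30170, a peroxidase gene, had a pair of probes shared with AT2G18980. Probe 4133 was listed at 0 on all arrays. Probe 3548 did not pass (limma, adjusted p = 0.0603; 0.0127 to 0.574 over 16 alternatives), at 0.457 ± 0.0903 in leaf and 0.910 ± 0.196 in root. These lists thus could not check the root label. Outside the members, photosystem and antenna probes went both ways and no Calvin cycle probe was called, so the leaf label was not checked either.

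Arrays 1 and 2 of each tissue had higher summed intensities than arrays 3 and 4, and the labels name no batch. Summed intensity over all probes was 3400 and 3426 against 3021 and 3068 in leaf, and 3479 and 3505 against 2868 and 2923 in root. The median intensity had the opposite order in leaf, at 0.150 and 0.153 against 0.170 and 0.176, and the same order in root, at 0.317 on both against 0.258 and 0.266. Of all 2087 probes above 0 throughout, 31.6% had both leaf arrays 1 and 2 above 3 and 4, and 52.9% had this order in root. At 38 of the 60 probes both leaf arrays 1 and 2 lay above 3 and 4 (63.3%, against 59.5% of all 437 probes of this brightness in leaf), and likewise at 38 in root (63.3% against 61.6%). The opposite order held at 10 in leaf and 9 in root. The part of the array pairs in these values was not tested. Computed within pairs, the ratio stayed at 3 or more at 53 probes in replicates 1 and 2, at 52 in replicates 3 and 4, and at 45 in both, and it was larger in replicates 3 and 4 at 36. The L18p/L5e probe had 41.8 in replicates 1 and 2 and 64.3 in the other pair, AT5G38360 had 39.0 and 63.0, and LHB1B2 had 39.0 and 61.5, whereas PRK had 30.6 and 19.0.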

How the data were processed

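The authors deposited 1 spot intensity per probe and array. How the intensity values were made is not given in the sources used here; per the file's values they are linear and reach a ceiling of 100. Groups and replicate numbers came from the sample titles. Genes came from the platform annotation, and all 101 member loci matched the RefSeq gene table (TAIR10.1), used for names and gene order only. Roles of loci without a symbol there are background knowledge. Members, lists and tests were chosen with earlier results of these data known.

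Tissue means, SDs and ratios use deposited intensities. For limma 3.58.1 in R 4.3.3, intensities were quantile normalised, given a floor of 0.00582, the 1st percentile of positive deposited intensities, and log2 transformed; 141 probes at the floor throughout were left out, which left 3298. Tissue was the only term, the test two-sided, with Benjamini-Hochberg adjustment over all probes at 0.05. It was tested on simulated data. Named genes are all single-gene members and, of shared ones, those of the rule (highest leaf means, listed genes, families, edges); the other shared members were named after their values were seen, as were the other PRA1 and OTP probes. No sequences are printed, promoter motifs were not searched and keyword classes were not used, since the tables used here hold neither sequences nor descriptions.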

Additional observations from a re-analysis of the deposited data

Results flagged for a closer look

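Among 119 groups of 4 arrays (60 probes in 2 tissues, without the group at the ceiling), 5 had 1 array far from the other 3; chance flags about 1 in 20 groups. On probe 615 for COR15A and COR15B, root replicate 2 read 0.976 against 0.206 to 0.311 on the other root arrays. The root values of AT1G72020 were high on replicate 2, at 0.597 against 0.493 to 0.511. For the thioredoxin family probe of AT5G03880 and AT4G10000, root replicate 1 read 0.623 against 0.521 to 0.531. On the probe of AT1G69400, BUB3.2 and BUB3.1, root replicate 1 was low, at 0.392 against 0.468 to 0.480. For AT4G00165 and AT2G45180, leaf replicate 1 was low, at 7.69 against 8.40 to 8.55. Each of the 5 probes met the rule without its far array, with ratios of 5.63, 3.60, 4.06, 3.18 and 5.0.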

How the results depend on the processing

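The number of probes meeting the rule was 60, and 100 with a ratio of 2 or more, 28 with 4 or more, 45 with a leaf mean of 2 or more, 73 with 0.5 or more, and 66 on quantile normalised intensities, 54 of them members. Leaving out 1 array gave 52 to 68. Of the 60, 45 met the rule without any 1 array, and the 15 that did not had ratios between 3.0 (AT4G30150) and 3.37 (COR15 probe 615, lost without root replicate 3 or 4). All 60 members were called higher in leaf, with no change of sign, under the 16 alternatives, including each array left out (60 to 60). Nothing is read from calls of members under any setting, since the rule used the same contrast. Over all probes, 729 were called higher in leaf and 664 in root; on deposited intensities these were 492 and 1138, where the median log2 difference of all probes, leaf minus root, moved from -0.05 to -0.80 and that of the members from 2.07 to 1.98. With median centring they were 868 and 608, and the medians 0.03 for all probes and 2.81 for the members, of which 53 moved by more than the spread between replicates; 20 did so on deposited intensities, 22 with a common mean (499 and 1154 calls, medians -0.82 and 1.96) and 9 with an offset. Without 1 array 656 to 672 were called higher in leaf. Of both probes with exactly a member's genes, 0 were called, 1 with a floor at the 5th percentile, 1 with an offset at the 10th percentile, and 0 to 1 without 1 array. With the replicate number as a block, 648 probes were called higher in leaf, all 60 members among them, and 0 of both probes with a member's genes. With this block the calls for AT1G08845 alone (limma, adjusted p = 0.0589) and for PRA1.B5 with PRA1.B4 (limma, adjusted p = 0.0522) were lost. Deviations of same-numbered arrays correlated at 0.0901 to 0.126, each array best with its own number, a hint from the data only. A block for replicates 1 and 2 against 3 and 4, chosen after seeing the data, gave 793. Values at 0 and at the ceiling limit what low and saturated probes can show. The planned promoter motif and keyword comparisons were not run, for want of sequences and descriptions in the tables used.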

Other observations

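Of the probes that met the value conditions, 37.7% carried a gene name, against 45.4% of all probes, and the share annotated to 1 gene among named probes was 46.7% against 44.3%. In gene order, 4 of the 60 (6.67%) named a gene within 10 protein-coding genes of a photosystem, antenna or Calvin cycle gene of the lists, other than those genes themselves, and 6.53% of all annotated probes did. These 4 were the probes of PRA1.G1 and PRA1.G2, AT3G26630, AT5G38360, and AT2G34540 with AT2G34530.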
